A study of Mus musculus with 2 samples.

Results

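The genes described here encode the potassium channels that set the resting potential and shape the spike of a neuron without being gated by voltage alone, together with accessory subunits of other potassium channels. They were all genes whose symbol places them among the inward rectifiers (Kcnj), the 2-pore-domain channels (Kcnk), the large-conductance calcium-activated channel and its beta subunits (Kcnma, Kcnmb), the small- and intermediate-conductance calcium-activated channels (Kcnn), the sodium-activated channels (Kcnt), the related Kcnu, the Kcne accessory subunits and the Kcnip calcium sensors. This rule, which used no measured value, found 50 of 24411 genes, held in 118 of 35034 transcript rows. The samples were 2 libraries of dorsal root ganglion (DRG) neurons, the cell bodies of peripheral sensory neurons, from male C57BL/6 mice (labelled so, and C57BL/6J in the methods) of 6 to 8 weeks. Each library was made from the pooled neurons of 10 mice. The alum-injected group, which is labelled both as naïve and as alum alone, received 50% alum, an adjuvant, in 200 µl of saline intraperitoneally on days 0 and 14. The alum + KLH-immunized group received the same injections with KLH (keyhole limpet hemocyanin, a foreign protein antigen) at 100 µg, so that both groups carried the adjuvant. Thoracic and lumbar DRGs were taken on day 28, digested with enzymes, cleared of debris over an albumin gradient and depleted of B lymphocytes. From the RNA, the study inferred that most of the preparations was neuronal and the rest non-neuronal. The levels below are therefore not those of neurons alone. With 1 pooled library in each group there was no replicate, no test was possible, and every difference below is a difference between 2 libraries. In bulk RNA of this kind, fewer cells of a type and less RNA per cell cannot be told apart.

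Inward rectifiers pass potassium into the cell more easily than out and so hold the membrane near rest, and some of them open when a Gi/o-coupled receptor releases G protein subunits or when ATP falls. The 2-pore-domain channels carry background leak current that is tuned by stretch, temperature, acid and lipids. Large-conductance (BK) and small-conductance (SK) channels open with intracellular calcium and end or space the spikes of a sensory neuron, whereas the sodium-activated channels encoded by Kcnt1 and Kcnt2 answer to sodium entry. The Kcnip proteins, also called KChIPs, are calcium-binding subunits of the Kv4 channels that carry A-type current, and the Kcne proteins are single-pass subunits that modify other potassium channels.

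The highest member in both pools was Kcnip4, and most of its RNA was assigned to transcripts that differ in where the protein starts, so these starts are shown first. Kcnip4 lies on the minus strand of chromosome 5 at 48389502 to 49524907 (GRCm38, the assembly of mm10). Its 5 RefSeq transcripts shared the last 590 coding bases and differed before them. The coding starts below are from the GENCODE M21 transcripts paired with each RefSeq identifier, 5′ to 3′, with the bases particular to the variant start in capitals and the first 18 shared bases in lower case.
NM_001199243: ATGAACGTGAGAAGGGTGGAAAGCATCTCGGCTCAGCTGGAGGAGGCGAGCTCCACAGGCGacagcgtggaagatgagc
NM_030265: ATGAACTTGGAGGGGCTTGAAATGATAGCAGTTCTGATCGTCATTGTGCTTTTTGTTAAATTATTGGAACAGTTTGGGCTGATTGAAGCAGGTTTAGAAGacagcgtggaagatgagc
NM_001199245: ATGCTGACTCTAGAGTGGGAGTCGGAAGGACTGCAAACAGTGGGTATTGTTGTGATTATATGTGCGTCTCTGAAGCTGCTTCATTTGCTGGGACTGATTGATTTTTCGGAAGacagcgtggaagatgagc
NM_001199244: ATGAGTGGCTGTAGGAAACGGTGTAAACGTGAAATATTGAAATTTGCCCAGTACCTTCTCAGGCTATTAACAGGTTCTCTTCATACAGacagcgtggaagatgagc
The first of these was at 591 TPM (a share of all transcripts in the library, scaled for transcript length) in the alum pool and 583 TPM in the alum + KLH pool. It held 78.7% and 79.8% of all Kcnip4 TPM, and pairs of values are given in this order of the pools throughout. NM_030265, whose start codon lies at 48889465, was at 93.1 and 78.1 TPM and held 12.4% and 10.7%. The other starts, at 48599534 and 49285340, gave 36.1 and 39.0 TPM for NM_001199245 and 29.2 and 28.2 TPM for NM_001199244. The remaining transcript, NM_001199242, which uses the same start codon as the leading one (49524701) but has a longer variant start of 163 bases, was at 1.78 and 2.54 TPM. The order of the 5 transcripts was the same in both pools. Because NM_001199242 repeats the start of the leading transcript, only 29 of the 2086 stretches of 31 bases (31-mers) in the leading transcript occurred in no other Kcnip4 transcript of the files.

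Across all 50 genes, 25 were above 3 TPM in the alum pool and 26 in the alum + KLH pool, the threshold for detectable expression in the methods of the study. These were 50% and 52.0% of the set, beside 46.9% and 46.3% of all genes in the files. The 25 genes of the first pool were all above the threshold in the second, where Kcnk6 joined them at 3.01 TPM. Of the 24 genes at or under 3 TPM in both pools, 18 were under 1 TPM in both, and Kcne1, Kcnk7, Kcnk15 and Kcnmb3 were listed at 0 in both. The 50 genes summed to 1408 TPM in each pool, which was 0.141% of all TPM. Kcnip4 alone made up 53.4% and 51.9% of this sum, and without it the other 49 genes summed to 657 and 678 TPM. Among the 26 genes above 3 TPM in at least 1 pool, the median level was 14.9 and 14.3 TPM, lower than the 24.2 and 23.5 TPM over all 11648 genes that passed the same filter.

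**Figure D1:**
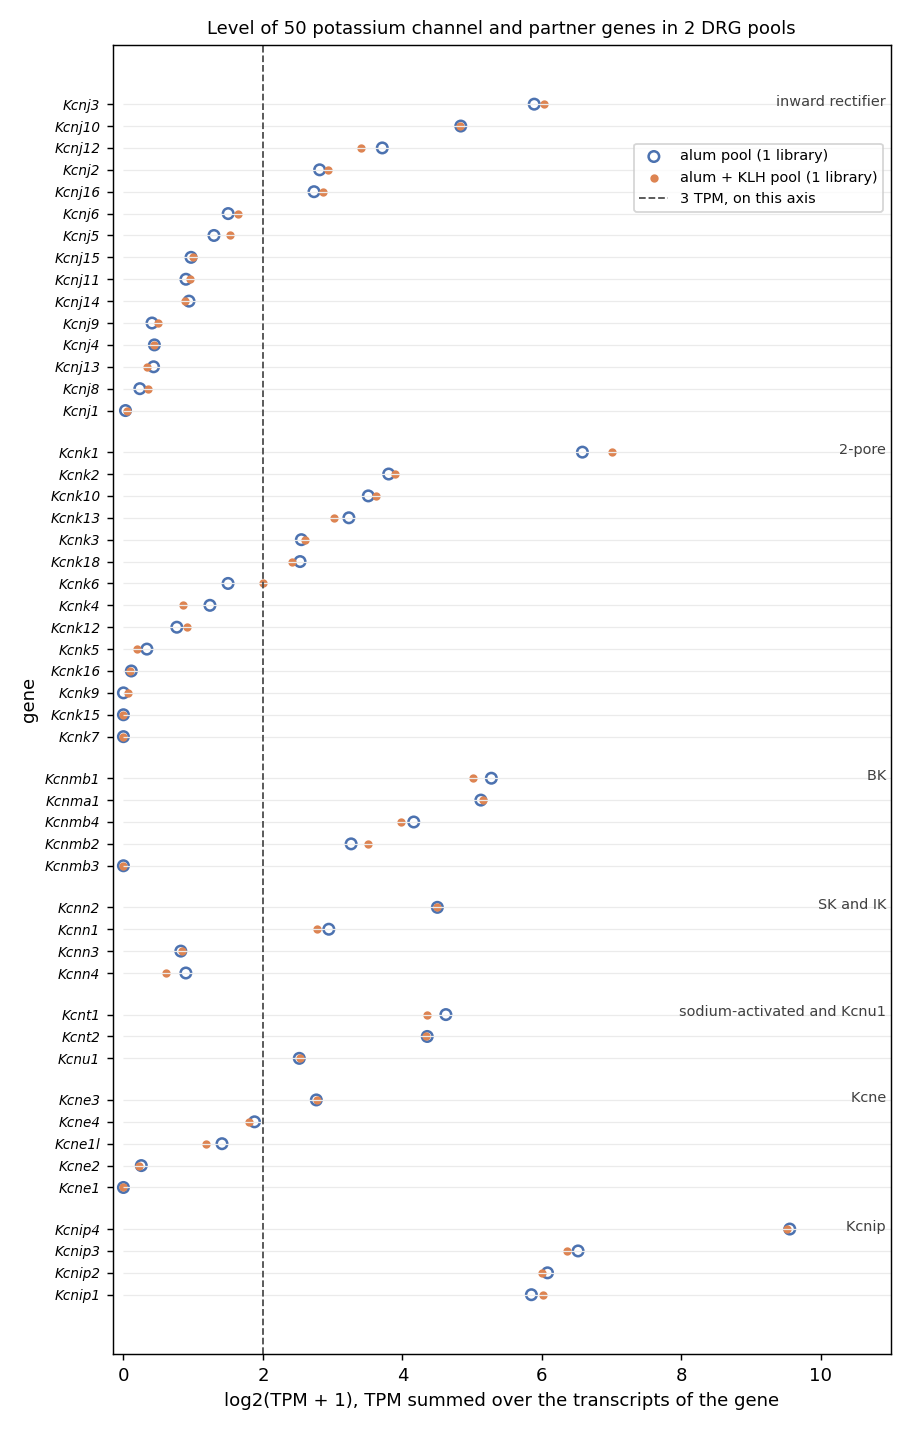
Level of each of the 50 genes, as log2(TPM + 1), in the alum pool (open circles) and the alum + KLH pool (filled points), 1 library each, ordered by subfamily and by mean level. Kcnip4 stands farthest to the right, Kcnk1 shows the widest gap between the pools among the high genes, and 24 genes lie at or left of the dashed line at 3 TPM in both pools.

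To compare the pools, the level with KLH was divided by the level without it, each as TPM + 1, and the log2 of this ratio was set beside its SD over the 500 genes closest in level. This SD describes the scatter between the 2 libraries and tests nothing. It did not change evenly with level. At mean levels of 6.27, 7.74, 9.50 and 13.4 TPM (Kcnn1, Kcnk13, Kcnmb2 and Kcnk2) it was 0.22, 0.52, 0.26 and 0.21. Whether a ratio lay within or beyond it thus depended in part on which genes were close in level. No member differed by 1.5-fold in either direction (0 of 26 each), where 1.00% of the 11648 genes were that much higher in the alum + KLH pool and 1.55% that much lower. The ratios of the 26 members ran from -0.31 to 0.50 with a median of -0.00013, and 13 were higher and 13 lower, with signs close to 0 that turned for Kcne3, Kcnk3, Kcnma1 and Kcnu1 relative to Hprt and for Kcnj10 and Kcnn2 when the pools were scaled to an equal median. Over all 11648 genes the median was -0.020. A smaller limit of 1.2-fold was chosen after the values were seen. At this limit Kcnk1 and Kcnk6 were higher (2 of 26, 7.69%, with 3.20% of all genes). Kcnk6, at 1.83 and 3.01 TPM, was among the 26 only through the alum + KLH pool. Its place among these 2 and among the 13 higher members therefore follows in part from the filter. Kcnj12, Kcnmb1 and Kcnt1 were lower (3 of 26, 11.5%, with 8.41% of all genes). The ratio exceeded the SD of its neighbours in 6 of the 26 members, namely Kcnk1, Kcnmb1, Kcnt1, Kcnip1, Kcnip3 and Kcnj3, and in 17.1% of all genes.

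**Figure D2:**
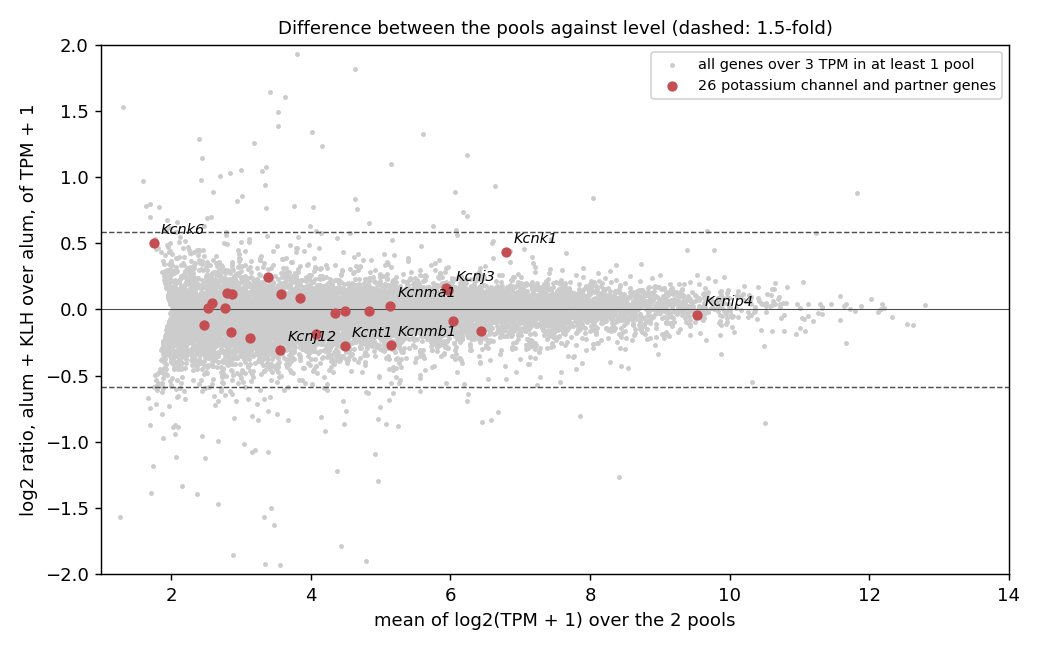
Log2 ratio of TPM + 1 (alum + KLH over alum pool) against the mean of log2(TPM + 1), for all 11648 genes above 3 TPM in at least 1 pool (grey) and the 26 members among them (red), with dashed lines at 1.5-fold. All 26 red points lie between the dashed lines, with Kcnk6 at the highest and Kcnj12 at the lowest ratio, and 147 genes fall outside the plotted range.

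Among the 2-pore-domain channels, which leak potassium at rest, Kcnk1 led by a wide margin. Kcnk1 (chromosome 8, 125995170 to 126030685), which encodes TWIK-1, was at 94.8 TPM in the alum pool and 128 TPM in the alum + KLH pool. It was second only to Kcnip4 in both pools, and the second pool was 1.35-fold higher on the TPM + 1 scale. The log2 ratio was 0.43, while genes of like level had an SD of 0.13. The TPM of Kcnk1 was 2.08 and 2.75 times that of the other 13 Kcnk genes together, which summed to 45.7 and 46.6 TPM. Beside this difference, the 4 markers of large-fibre neurons summed to 1326 and 1468 TPM, with Spp1 (196 and 352 TPM) and Pvalb (80.4 and 114 TPM) higher in the immunized pool and Nefh (1021 and 973 TPM) and Ntrk3 (29.1 and 27.99 TPM) lower. The other marker lists summed to less in the immunized pool, among them the neuronal (11024 and 10916 TPM) and nociceptor (8014 and 7493 TPM) lists. Whether any of these markers bears on the level of Kcnk1 was not tested. Of the exon bases of Kcnk1, 179 overlap an antisense gene on the other strand, Gm45875, that has no row in the files.

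The remaining leak channels were all lower than Kcnk1. Kcnk2, which encodes the stretch- and heat-sensitive TREK-1, was at 12.96 and 13.9 TPM, and its relative Kcnk10 (TREK-2) at 10.4 and 11.3 TPM. Kcnk4 (TRAAK), the other member of that mechanosensitive group, was under the threshold at 1.36 and 0.814 TPM. Kcnk13 (THIK-1) was at 8.40 and 7.08 TPM, with 99.8% and 99.9% of it on NM_146037, a log2 ratio of -0.22 where genes of like level had an SD of 0.52. The acid-sensitive Kcnk3 (TASK-1) was at 4.86 and 5.08 TPM, while its relative Kcnk9 (TASK-3) was listed at 0 and 0.049 TPM. Kcnk18, which encodes TRESK, a calcineurin-regulated channel known from sensory neurons, was at 4.79 and 4.32 TPM. Kcnk6 (TWIK-2) was at 1.83 and 3.01 TPM, so that the highest ratio of all 26 members (0.50) belonged to a gene at the threshold, with an SD of 0.59 among its neighbours in level. Kcnk12, Kcnk5 and Kcnk16 were between 0.070 and 0.888 TPM, and Kcnk7 and Kcnk15 were listed at 0.

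Although the total of Kcnk2 differed by 0.089 on the log2 scale, its transcripts did not keep their order. Kcnk2 (chromosome 1, 189207930 to 189402273, minus strand) has 4 rows that share the last 1235 coding bases and begin at different start codons. The rows also differ outside their coding starts, since the paired GENCODE transcripts are 1548, 3297 and 1373 bases long in the order shown. Whether the pools differed in the start codon used was not tested. The starts are shown because the pools differed in the levels of these rows, with the bases particular to each start in capitals.
NM_001159850: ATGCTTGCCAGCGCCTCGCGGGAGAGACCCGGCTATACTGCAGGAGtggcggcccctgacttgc
NM_001281847: ATGGGTGCAGtggcggcccctgacttgc
NM_001281848: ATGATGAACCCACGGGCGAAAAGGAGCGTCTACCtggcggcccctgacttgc
NM_001159850 was at 10.0 TPM in the alum pool and 4.45 TPM in the alum + KLH pool, or 77.1% and 32.2% of Kcnk2. NM_001281847 was at 2.62 and 7.16 TPM, or 20.2% and 51.7%, and NM_001281848 at 0.352 and 2.24 TPM, or 2.71% and 16.2%. The fourth row, NM_010607, was listed at 0 in both pools. The start codons lie at 189343088, 189344000 and 189402146 in the order shown. Among the 12 members with several rows and more than 3 TPM, 22 rows were above 3 TPM in at least 1 pool, and NM_001159850 and NM_001281847 were the 2 that differed by 1.5-fold or more. Of their 31-mers, 286 (18.8%) in NM_001159850, 2023 (61.9%) in NM_001281847 and 101 (7.52%) in NM_001281848 occurred in no other Kcnk2 row. The files hold no error for the division of reads among transcripts, so this difference has no check within or between libraries. A further 426 of 4061 Kcnk2 31-mers (10.5%) occurred in transcripts of other genes, with A430027H14Rik, which lies antisense to Kcnk2, sharing the most.

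Of the 15 inward rectifiers, 5 were above 3 TPM in both pools. Kcnj3 (chromosome 2, 55435970 to 55598145), which encodes the G protein-gated subunit Kir3.1, led with 58.3 TPM in the alum pool and 64.6 TPM in the alum + KLH pool. Its log2 ratio of 0.15 was just above the SD of 0.13 over its neighbours in level. Kir3.1 is known to need a second Kir3 subunit to form a channel at the cell surface, and the subunit genes Kcnj5, Kcnj6 and Kcnj9 were at 1.46 and 1.88, 1.83 and 2.14, and 0.328 and 0.414 TPM. Kcnj3 was thus 16.1 and 14.6 times the sum of the other 3 Kir3 genes, which was 3.62 and 4.44 TPM. Most of the Kcnj3 level was assigned to a transcript with a short coding sequence. NM_001304810 was at 41.9 and 48.9 TPM, or 71.8% and 75.8% of the gene, and NM_008426, the longer form, at 16.5 and 15.7 TPM. Both share their first 702 coding bases, after which the short form ends within 6 bases while the long form runs to 1506 coding bases. The last 30 shared bases are shown in lower case and the bases after the branch in capitals, up to the stop codon for the short form and for the first 60 bases for the long form.
NM_001304810: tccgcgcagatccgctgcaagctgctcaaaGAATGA
NM_008426: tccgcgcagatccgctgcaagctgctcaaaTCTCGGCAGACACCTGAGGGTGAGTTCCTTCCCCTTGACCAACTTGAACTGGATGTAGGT
Only 30 of the 31-mers of NM_001304810 (0.743%) were absent from NM_008426, which leaves few bases that tell the short form apart. The long form had more sequence of its own, with 1177 31-mers (22.7%) absent from the short form. In addition, 30.2% of the Kcnj3 31-mers occurred in transcripts of other genes, mainly the antisense gene Gm26794, which has no row in the files. Gm26794 covers 1621 of the 5215 bases of NM_008426 and 696 of the 4068 bases of NM_001304810.

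Of the receptors that open Kir3 channels through Gi/o proteins, 5 were examined, and these 5 were above the threshold. The mu opioid receptor gene Oprm1 was at 46.5 and 44.1 TPM, the GABA-B receptor genes Gabbr1 and Gabbr2 at 241 and 237 and at 30.7 and 25.3 TPM, the delta opioid receptor gene Oprd1 at 9.73 and 7.66 TPM and the muscarinic receptor gene Chrm2 at 10.5 and 9.31 TPM. All 5 were lower in the immunized pool, none by 1.5-fold, with log2 ratios from -0.31 (Oprd1) to -0.024 (Gabbr1). This direction was common among the listed genes, since 17 of all 25 partner genes and 32 of all 40 cell type markers were lower there. The median log2 ratio over all 11648 genes above 3 TPM in at least 1 pool was also negative, at -0.020. The share of all genes that were lower was not counted, so these counts have no background share beside them.

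The other inward rectifiers above the threshold carry constitutive current. Kcnj10, which encodes Kir4.1 of glial cells and clears potassium around neurons, was at 27.6 and 27.4 TPM. All 5 satellite glia markers, of which Kcnj10 is 1, were above 3 TPM, and they summed to 1348 and 1273 TPM. Kcnj16, whose product Kir5.1 pairs with Kir4.1, was at 5.65 and 6.25 TPM, with 91.8% and 92.8% of it on NM_001252209. Among the classical strong rectifiers, Kcnj12 (Kir2.2) was at 12.1 TPM in the alum pool and 9.58 TPM in the alum + KLH pool, all on NM_001267593, and Kcnj2 (Kir2.1) at 6.03 and 6.61 TPM. The log2 ratio of Kcnj12 (-0.31) was the lowest of the 26 members, within the SD of 0.33 among genes of like level. That SD was smaller around Kcnmb2 (0.26) and Kcnk2 (0.21), at mean levels of 9.50 and 13.4 TPM beside 10.8 TPM for Kcnj12. Kcnj4 and Kcnj14, which encode the other Kir2 channels, were at 0.360 and 0.361 TPM and at 0.919 and 0.851 TPM. Both pore subunits of the ATP-sensitive channel were under the threshold, Kcnj11 (Kir6.2) at 0.861 and 0.944 TPM and Kcnj8 (Kir6.1) at 0.177 and 0.279 TPM. Their sulfonylurea receptors were similarly low, with Abcc8 at 0.616 and 0.657 TPM and Abcc9 at 1.00 and 1.17 TPM. Kcnj15, Kcnj13 and the kidney channel gene Kcnj1 lay between 0.021 and 1.00 TPM.

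Of the BK channel genes, the pore subunit and 3 of the 4 beta subunits were above the threshold, and Kcnmb1 was closest in level to the pore. Kcnma1, the only gene for the pore (chromosome 14, 23289431 to 24014491, minus strand), was at 33.9 and 34.6 TPM. Kcnmb1, a beta subunit best known from smooth muscle that raises the calcium sensitivity of the channel, was at 37.7 TPM in the alum pool and 31.2 TPM in the alum + KLH pool. Its log2 ratio was -0.27, beyond the SD of 0.16 over genes of like level. Beside this, 1 of the 6 smooth muscle and pericyte markers was above 3 TPM, Rgs5 at 172 and 162 TPM, and the other 5 lay between 0.107 and 2.00 TPM in the first pool and between 0.033 and 1.77 TPM in the second. Among these 5 were the smooth muscle genes Acta2 (1.07 and 0.661 TPM) and Myh11 (0.703 and 0.482 TPM). All 6 markers were lower in the immunized pool, as were 32 of the 40 markers over all cell types examined. The median log2 ratio over all 11648 genes above 3 TPM in at least 1 pool was also negative, at -0.020. The sum of the 6 markers was 178 and 167 TPM, nearly all of it Rgs5. Whether these 6 markers bear on the level of Kcnmb1 was not tested. Kcnmb1 (chromosome 11, 33963013 to 33973641, plus strand) lies inside Kcnip1 (33629339 to 33993152, minus strand), and the 2 genes share 0 exon bases. Their ratios had opposite signs.

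Kcnmb4, the beta subunit of neurons, was at 16.9 and 14.7 TPM, and Kcnmb2, which inactivates the channel, at 8.61 and 10.4 TPM. Kcnmb3 was listed at 0 in both pools. Summed over the 4 genes, the beta subunits were 1.87 and 1.63 times Kcnma1. The level of Kcnmb4 carries an uncertainty of identity, since 74.0% of its 31-mers occurred in other genes and its antisense genes Kcnmb4os1 (0.401 and 0.086 TPM) and Kcnmb4os2 (1.33 and 1.57 TPM) overlap 355 and 693 of the 1367 bases of its transcript. Of the leucine-rich gamma subunits of BK channels, Lrrc55 was above the threshold at 5.87 and 7.08 TPM, while Lrrc26 (0.113 and 0.146 TPM), Lrrc52 (0 and 0.104 TPM) and Lrrc38 (0 in both) were not.

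Kcnma1 had 22 transcript rows, of which 6 were listed at 0 in both pools and 2 were above 3 TPM in both. These 2 were NM_001253360 at 15.5 and 14.7 TPM and NM_001253374 at 11.8 and 13.9 TPM. Only 0 of 3549 31-mers in the first and 28 of 3318 (0.844%) in the second occurred in no other Kcnma1 row. Few bases are thus particular to these 2 rows. Their coding sequences of 3579 and 3348 bases differ in length by 231 bases, and they differ in sequence in 4 stretches. The rows end in 3 alternative coding ends, whose last 18 bases, stop codon included, are shown because they allow the 22 rows to be summed into 3 forms of the channel tail.
End of 7 rows: gttgaagatgaatgttga
End of 10 rows: gaaatggtttacagatga
End of 5 rows: caggaagagcggctttga
Rows with the first end held 28.9 and 28.7 TPM, or 85.2% and 82.8% of Kcnma1. The second end held 2.89 and 3.59 TPM and the third 2.14 and 2.34 TPM. The order of the 3 ends was the same in both pools. When only rows with a GENCODE transcript of their own were counted, the first end still led (27.3 and 28.7 TPM), whereas the second end was lower than the third, at 0.625 and 1.03 TPM.

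**Figure D3:**
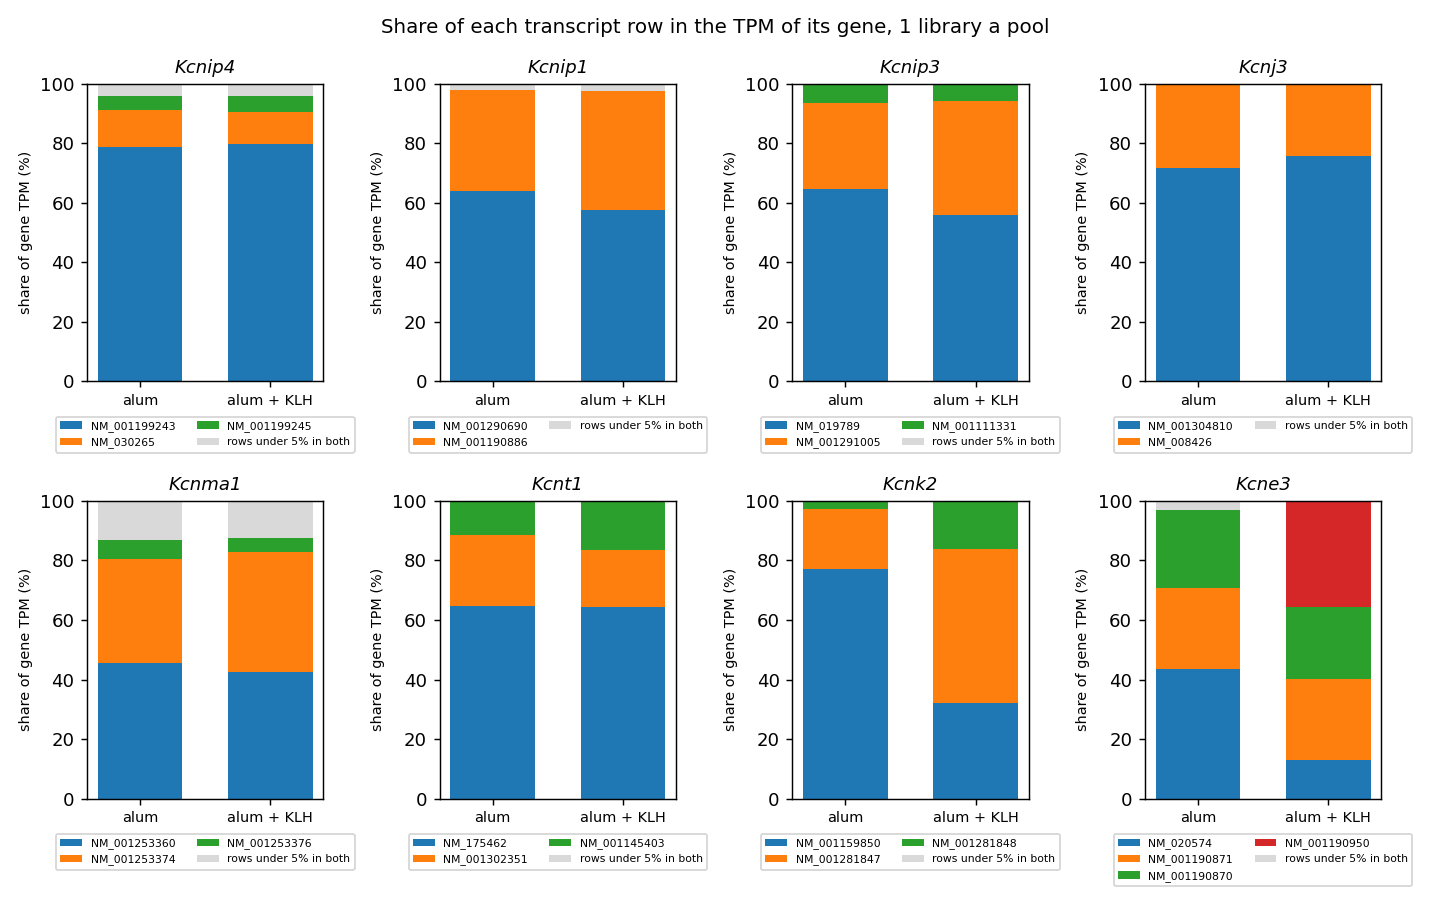
Share of each transcript row in the TPM of its gene (percent, vertical axis) in the alum and the alum + KLH pool, 1 library each, for 8 members with several rows. Rows under 5% in both pools are grey. Kcnip4, Kcnj3, Kcnma1 and Kcnt1 show similar bars in both pools, while the leading row of Kcnk2 held 77.1% in the first pool and 32.2% in the second.

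SK channels, which produce the afterhyperpolarization that follows a spike, were represented mainly by Kcnn2. Kcnn2 (SK2) was at 21.7 and 21.5 TPM, with a log2 ratio of -0.012, and Kcnn1 (SK1) was at 6.70 and 5.84 TPM. Of the Kcnn2 31-mers, 258 of 1695 (15.2%) occurred in transcripts of other genes. A330093E20Rik, which lies antisense to Kcnn2 and was at 0.418 and 0.765 TPM, shared the most. Kcnn3 (SK3) at 0.769 and 0.783 TPM and the intermediate-conductance channel gene Kcnn4 at 0.860 and 0.523 TPM were under the threshold.

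The sodium-activated channel genes were both expressed. Kcnt1, which encodes Slack, was at 23.7 TPM in the alum pool and 19.4 TPM in the alum + KLH pool. Its log2 ratio of -0.27 was beyond the SD of 0.17 over genes of like level. Of its 3 transcripts, NM_175462 at 15.3 and 12.5 TPM and NM_001302351 at 5.63 and 3.68 TPM were lower in the immunized pool, and NM_001145403 at 2.73 and 3.22 TPM was higher. In this order, 737 (12.6%), 119 (2.29%) and 207 (5.53%) of their 31-mers occurred in no other Kcnt1 row. Little sequence thus tells NM_001302351 and NM_001145403 apart from the other rows. Kcnt2 (Slick), which can join Slack in the same channel, was at 19.5 and 19.1 TPM and showed a ratio of only -0.024. Kcnu1, the pH-sensitive Slo3 channel known from sperm, was above the threshold at 4.74 and 4.79 TPM, and 0 of its 3506 31-mers occurred in transcripts of other genes.

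The 4 Kcnip genes together held 68.6% and 66.6% of the TPM of all 50 members. Below Kcnip4, which was at 751 TPM in the alum pool and 731 TPM in the alum + KLH pool, the other 3 genes lay close to each other. Kcnip3, which encodes KChIP3, also known as calsenilin and as the transcriptional repressor DREAM, was at 90.8 and 81.0 TPM. Kcnip2 was at 66.7 and 62.9 TPM, all on NM_001276358, and Kcnip1 at 56.7 and 63.6 TPM. The log2 ratios of Kcnip3 (-0.16) and Kcnip1 (0.16) were both beyond the SD of 0.13 over genes of like level and had opposite signs. With the highest transcript in place of the sum, the ratio of Kcnip1 was 0.014, within that SD, and the ratio of Kcnip3 was -0.37. Kcnip1 was lower than Kcnip2 in the first pool and higher in the second. Within Kcnip1, NM_001290690 was at 36.3 and 36.6 TPM while NM_001190886 was at 19.2 and 25.3 TPM, although these 2 rows are paired with the same GENCODE transcript. Within Kcnip3, NM_019789 was at 58.8 and 45.3 TPM and NM_001291005 at 26.2 and 30.97 TPM, and the second of these had 0 31-mers of its own.

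The pore genes that the Kcnip proteins serve were lower than Kcnip4. Kcnd3 (Kv4.3) was at 168 and 154 TPM, Kcnd1 (Kv4.1) at 59.3 and 55.8 TPM and Kcnd2 (Kv4.2) under the threshold at 2.42 and 2.59 TPM. The sum of the 4 Kcnip genes was 4.20 and 4.41 times the sum of these 3 Kcnd genes. Dpp6 (239 and 235 TPM) and Dpp10 (302 and 292 TPM), which encode the transmembrane partners of the same complex, were both above the Kcnd sum of 230 and 213 TPM. None of the 5 genes differed by 1.5-fold between the pools.

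**Figure D4:**
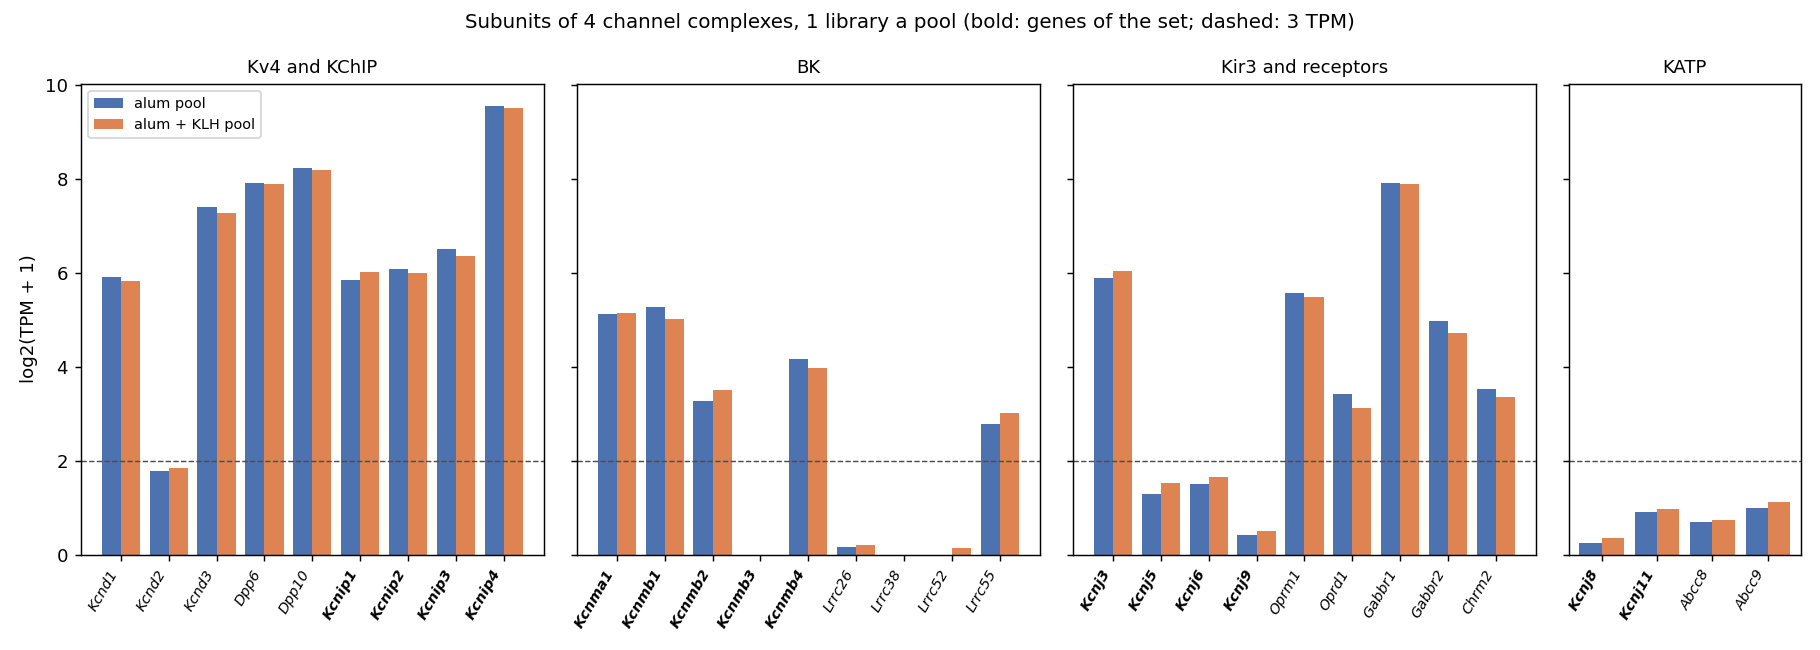
Level, as log2(TPM + 1), of the subunits of the Kv4, BK, Kir3 and ATP-sensitive (KATP) channels in the alum (blue) and alum + KLH (orange) pool, 1 library each, with genes of the set in bold and a dashed line at 3 TPM. Kcnip4 is the tallest pair of bars, Kcnj3 stands alone above the line among the Kir3 subunits, and all 4 KATP genes lie below it.

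Of the Kcne accessory subunits, Kcne3 alone was above the threshold, at 5.80 and 5.86 TPM. Its total was close between the pools, but its rows were not: NM_020574 was at 2.52 and 0.757 TPM and NM_001190950 at 0 and 2.09 TPM, while NM_001190871 (1.58 and 1.59 TPM) and NM_001190870 (1.53 and 1.43 TPM) stayed near each other. Each of the 5 Kcne3 rows has 312 coding bases. NM_020574 and NM_001190871 had 0 31-mers of their own and NM_001190950 had 29 of 409, so little sequence tells these rows apart. Kcne4 was just under the threshold at 2.68 and 2.50 TPM, Kcne1l at 1.66 and 1.27 TPM and Kcne2 at 0.194 and 0.167 TPM. Among the alpha subunits that bind Kcne proteins, Kcnq1 was at 0.314 and 0.287 TPM, whereas Kcnq5 (31.9 and 29.9 TPM), Kcnq3 (12.5 and 12.0 TPM) and Kcnh2 (5.11 and 4.47 TPM) were above 3 TPM in both pools. These 4 genes were lower in the immunized pool, with log2 ratios from -0.16 (Kcnh2) to -0.030 (Kcnq1). Over the 25 partner genes examined, 17 were lower in that pool and 7 were higher. The median log2 ratio over all 11648 genes above 3 TPM in at least 1 pool was also negative, at -0.020. Of the 25 partner genes, 18 were above 3 TPM in at least 1 pool and 0 of these 18 differed by 1.5-fold, in either direction.

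Several members lie next to each other in the genome, and beside Kcnmb1, which lies within Kcnip1, 8 pairs that do not overlap were less than 500 kb apart. In 1 of these 8 pairs, Kcnj16 and Kcnj2 on chromosome 11, both genes were above the threshold, at 38.2 kb from each other and in the same orientation, with levels of 5.65 and 6.03 TPM in the first pool and 6.25 and 6.61 TPM in the second. In 2 of the 8 pairs the genes stood far apart in level. Kcnj9 and Kcnj10 face away from each other on chromosome 1 across 11.9 kb, and Kcnj10 was at 27.6 and 27.4 TPM where Kcnj9 was at 0.328 and 0.414 TPM. Kcnmb2 and Kcnmb3 on chromosome 3 were at 8.61 and 10.4 TPM and at 0 in both pools. In the other 5 pairs both genes were at or under 3 TPM.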

How the data were processed

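RNA-seq of 2 pooled DRG neuron libraries was analysed. The authors prepared stranded, poly(A)-selected, paired-end libraries, converted the images with bcl2fastq, trimmed with cutadapt and quantified annotated transcripts with kallisto on mm10, and deposited 1 TPM value for each RefSeq transcript. Versions and kallisto's strand setting are not given in the sources used here. TPM keeps no read depth, so the files give no count, interval or detection floor, and an exact 0 is given as listed at 0.

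Gene totals were sums of TPM over all rows of a symbol. Genes above 3 TPM in at least 1 pool were compared as log2((TPM + 1) alum + KLH / (TPM + 1) alum), which understates the change of low genes. The SD of these ratios among the 500 genes nearest in mean log2(TPM + 1) served as the measure of scatter. No test was made, since each group has 1 library. Every member above 3 TPM in at least 1 pool was named with both values, the others by value or range, and transcripts holding at least 10% of such a gene. The members, partner lists and marker lists were chosen with earlier results of these data known. A few partner genes are not reported here. Of the other marker lists, more than 3 TPM was found in both pools for 5 of 5 neuronal, 5 of 5 nociceptor and 4 of 6 Schwann cell genes, against 0 of 5 macrophage genes and 1 of 4 endothelial genes.

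Positions, coding sequences and antisense overlaps came from GENCODE M21 (GRCm38), paired with RefSeq identifiers through its own table (118 of 118 rows, 94 of them 1 to 1). Sequence sharing was the share of 31-mers found, in either orientation, in other annotated transcripts. Of the 50 members, 29 shared any and 12 over 5%. The calculations used Python 3.11.15, numpy 2.4.6, pandas 2.3.3 and matplotlib 3.10.9 and were tested on simulated data with 200 changed genes. Alternatives were other thresholds, pseudocounts and filters, the highest transcript in place of the sum, scaling to an equal median and TPM relative to Hprt.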

Additional observations from a re-analysis of the deposited data

How the results depend on the processing

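With 1 library per group, no value has an error between mice, and depth cannot be read from TPM. No paired analysis was possible because each group has 1 library. The number of members above the threshold was 45 in the alum pool and 46 in the alum + KLH pool at 0 TPM, and 16 in each at 10 TPM. The count of members at least 1.5-fold higher went from 0 to 1 (Kcnk6) with a pseudocount of 0.1 or 0.5 TPM. At a limit of 1.2-fold, added after seeing the data, 2 were higher and 3 lower. Kcnk6, 1 of these 2, passed the filter only through the alum + KLH pool. The count at least 1.5-fold lower went from 0 to 1 (Kcnk2) when the highest transcript replaced the sum, since its leading row differed between the pools. The median log2 ratio of the members stayed between -0.092 (relative to Hprt) and 0.017 (rescaled by the median ratio of the pools, 0.987). Hprt was 1.06 times as high in the immunized pool, and relative to it the sign turned for Kcne3, Kcnk3, Kcnma1 and Kcnu1, all close to 0 as reported. Rescaling by the median turned Kcnj10 and Kcnn2. Of 130 ratios of named members under the alternatives, 4 moved by more than the SD of genes of like level, all with the highest transcript (Kcne3 to -1.004, Kcnip1 to 0.014, Kcnip3 to -0.37 and Kcnk2 to -1.01), and Kcnip1 was then within that SD.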
